A study of Mus musculus with 6 samples.

Results

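The levels of 9 long noncoding RNAs, *Malat1*, *Meg3*, *Rian*, *Mirg*, *Neat1*, *Snhg11*, *Miat*, *Peg13*, and *Pantr1*, were examined in the cerebellum of mice that lack the metal ion transporter *Slc39a8* in neurons. The 9 genes were taken by name from the 53715 genes of the deposited count table, and all 9 were among the 16330 genes that passed the filter on low counts. The libraries, 1 per mouse, came from male mice aged 4 weeks, 3 of them control and 3 *Slc39a8*-NSKO. The labels give the strain as C57BL/6 and the methods as C57BL/6J. In *Slc39a8*-NSKO mice, a Cre transgene under the synapsin promoter (*Syn-Cre*) recombines the floxed *Slc39a8* alleles (*Slc39a8* fl/fl) in neurons, so glia and vascular cells of the same tissue keep the gene. The methods name *Slc39a8* fl/fl mice as the controls of this cross, whereas the sample labels call the controls WT. The counts cannot tell these apart. The comparison of control with *Slc39a8*-NSKO asked how neuronal loss of the transporter changes the cerebellar transcriptome, and here it is read for these noncoding RNAs.

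Long noncoding RNAs are transcripts that are not translated into a known protein, and many of them stay in the nucleus. *Malat1* is concentrated in nuclear speckles, which store splicing factors, and *Neat1* is the RNA scaffold of paraspeckles. *Meg3*, *Rian*, and *Mirg* are transcribed from the maternal copy of the imprinted *Dlk1*-*Dio3* domain and carry small RNAs in their introns and exons. *Snhg11* is a small nucleolar RNA host gene of neurons, *Miat* (also called Gomafu) is a nuclear RNA of neurons that binds the splicing factor SF1, *Peg13* is an imprinted RNA transcribed from the paternal copy within *Trappc9*, and *Pantr1* lies next to the neural transcription factor gene *Pou3f3*.

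The study's question about cAMP signaling makes the promoters of these RNAs of interest, because the cAMP response element (CRE), TGACGTCA, is bound by CREB. RefSeq promoters (GRCm38.p6, 250 bases before to 50 after the start) were found for 6 of the 9 genes, and both strands were searched for the full CRE and for its half-site TGACG, which the full element holds on each strand. Only *Meg3*, in the first of its 2 promoters, held the full element, at chr12:109540939-109540946, from position -57 to -50 where the first transcribed base is 0. Of all 32851 promoters in the RefSeq table, 1.79% held the full element and 20.8% held the half-site. *Malat1* held 3 half-sites, beginning at positions -154, -45, and -3, and the second promoter of *Meg3* and those of *Rian*, *Mirg*, *Snhg11*, and *Miat* held none. *Neat1*, *Peg13*, and *Pantr1* had no entry. The promoters of the 2 genes with a match are shown in the direction of transcription, with the matches in capitals.
*Meg3*, chr12:109540746-109541045, + strand: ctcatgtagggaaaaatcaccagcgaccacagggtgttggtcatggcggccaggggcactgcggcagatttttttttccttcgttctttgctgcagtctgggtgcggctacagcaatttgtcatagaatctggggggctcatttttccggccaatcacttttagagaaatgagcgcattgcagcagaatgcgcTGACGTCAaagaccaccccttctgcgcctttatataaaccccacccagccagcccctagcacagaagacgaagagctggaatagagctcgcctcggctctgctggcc
*Malat1*, chr19:5802623-5802922, - strand: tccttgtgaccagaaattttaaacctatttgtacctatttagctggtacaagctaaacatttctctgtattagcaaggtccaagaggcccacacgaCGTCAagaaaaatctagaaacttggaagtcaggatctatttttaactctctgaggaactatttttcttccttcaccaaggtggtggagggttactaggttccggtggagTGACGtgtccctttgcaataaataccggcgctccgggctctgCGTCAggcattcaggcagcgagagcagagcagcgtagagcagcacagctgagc

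The small RNAs that the imprinted RNAs carry are part of their identity. The annotation places 19 microRNA genes inside 3 of the 9 genes, 2 in *Meg3*, 3 in *Rian*, and 14 in *Mirg*. Their mature sequences were taken from RefSeq (GRCm38.p6), and 8 are shown, with the seed (bases 2 to 8), which pairs with target mRNAs, in capitals. They include microRNAs from each host and the only pair of mature microRNAs in the 3 hosts with the same seed.
mmu-miR-770-5p, chr12:109563710-109563731, + strand: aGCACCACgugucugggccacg
mmu-miR-341-5p, chr12:109611521-109611541, + strand: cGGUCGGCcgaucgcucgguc
mmu-miR-370-3p, chr12:109618305-109618326, + strand: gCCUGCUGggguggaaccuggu
mmu-miR-134-5p, chr12:109734145-109734166, + strand: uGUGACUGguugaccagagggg
mmu-miR-369-3p, chr12:109743466-109743486, + strand: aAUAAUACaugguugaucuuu
mmu-miR-410-3p, chr12:109743764-109743784, + strand: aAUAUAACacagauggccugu
mmu-miR-453, chr12:109735669-109735692, + strand: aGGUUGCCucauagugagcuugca
mmu-miR-496a-5p, chr12:109739132-109739152, + strand: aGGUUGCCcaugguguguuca
The first lies in *Meg3*, the next 2 in *Rian*, and the other 5 in *Mirg*. The shared seed, GGUUGCC, is that of mmu-miR-453 and mmu-miR-496a-5p. All 19 microRNA genes had an entry in the count table, and each was at 0 in all 6 mice, which allows up to 3 counts per mouse. These libraries were made from long RNA, so the zeros say nothing of the mature microRNAs, and the counts on the host genes are the only readout of the loci here.

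A further 2 stretches are shown, of which that of *Malat1* bears on what the counts measure. The cDNA was primed with oligo-dT. The full-length *Malat1* transcript of 6983 bases holds a run of 12 A near its end, at positions 6674 to 6685, shown in capitals. The mature RNA is known to end without a conventional poly(A) tail. Such runs were not particular to *Malat1*. Over annotated transcripts, the longest run was 16 A in *Meg3*, 15 in *Rian*, and 12 in *Pantr1*, and 9 or fewer in the others. Priming at these runs was not tested. *Miat* holds 11 copies of ACTAAC, the motif of SF1, in its transcript of 9163 bases. Of 7040 annotated transcripts of at least 5000 bases, 13 (0.185%) held at least as many copies. The 13 include the *Miat* transcripts of 9163 and 8758 bases, with 11 copies each. Isoforms were counted separately, and copies were not scaled by length. A stretch of *Miat* with 3 copies in capitals (positions 5013 to 5077) is shown beside that of *Malat1*.
*Malat1*: cctagctttAAAAAAAAAAAAgcaaaagac
*Miat*: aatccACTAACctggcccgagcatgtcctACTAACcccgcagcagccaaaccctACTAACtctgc

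The counts on genes ranged from 14431260 to 20844267 per mouse, and control mice 2 and 3 had the smallest libraries (14431260 and 15555933), below the range of the *Slc39a8*-NSKO mice (18779182 to 20030339). Control mouse 1 had the largest library, above that range. The deleted gene itself, *Slc39a8*, was counted 99, 46, and 44 times in the controls and 38, 40, and 41 times in the *Slc39a8*-NSKO mice (mice 1 to 3 in each), without overlap in CPM. Its mean level was 3.60 ± 1.04 CPM (counts scaled to a library of 1000000 gene counts; SD, n = 3) in control and 2.04 ± 0.138 CPM (n = 3) in *Slc39a8*-NSKO, a log2 fold change of -0.83 (SE 0.237, adjusted p = 0.534, edgeR's quasi-likelihood test with Benjamini-Hochberg adjustment). Transcripts of mitochondrial mRNAs took 4.47%, 5.17%, and 4.70% of the counts in the control and 4.41%, 4.98%, and 4.32% in the *Slc39a8*-NSKO libraries. Markers of granule cells, Purkinje cells, astrocytes and Bergmann glia, oligodendrocytes, microglia, endothelium, choroid plexus, and erythroid cells were all above 0, so the tissue held many cell types. In bulk tissue, fewer cells of a type and less RNA per cell cannot be told apart, and the counts do not show in which cells a noncoding RNA was made.

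The 9 RNAs covered a wide range of levels. In all 6 mice *Malat1* stood at the top, and by mean CPM *Malat1*, *Meg3*, and *Snhg11* ranked 10th, 17th, and 53rd of the 16330 genes. *Rian*, *Peg13*, and *Neat1* ranked 216th, 436th, and 1982nd. *Mirg*, *Miat*, and *Pantr1* ranked 6321st, 8611th, and 11387th, so the word abundant does not describe these 3 in this tissue. Per kilobase of exon, which allows genes to be compared, the mean level over 6 mice was 486 CPM per kb for *Malat1*, 136 for *Snhg11*, 129 for *Meg3*, 67.1 for *Peg13*, 26.9 for *Rian*, 5.41 for *Neat1*, 4.54 for *Mirg*, 1.93 for *Miat*, and 1.33 for *Pantr1*. Neighbors in this order were separated by more than their spread over mice, except *Snhg11* (119 to 155) with *Meg3* (108 to 149) and *Neat1* (4.49 to 6.52) with *Mirg* (3.62 to 5.58), and each gene was above the next in 6 of 6 mice. The length matters for genes with many isoforms. With the longest annotated transcript in place of all exons, the values were 8.66 CPM per kb for *Mirg* against 5.41 for *Neat1*, and 2.83 for *Pantr1* against 1.95 for *Miat*, which reversed the order within both pairs.

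**Figure D1:**
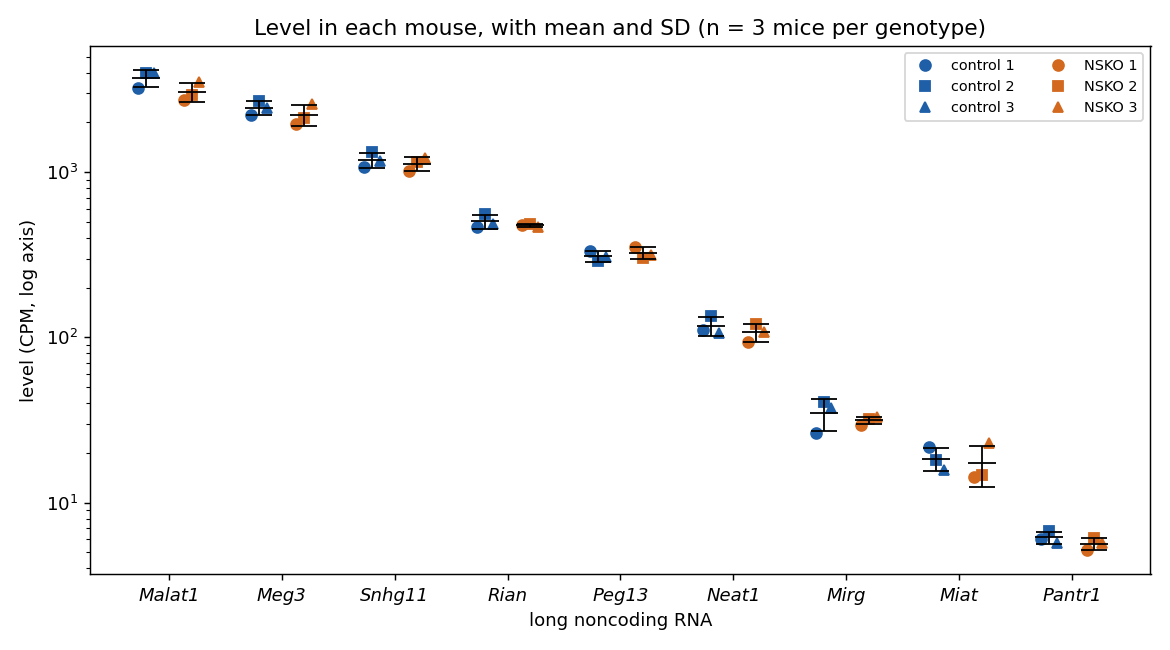
Level of each long noncoding RNA in CPM on a log axis, with 1 point per mouse (control in blue, *Slc39a8*-NSKO in orange) and bars for the mean and SD of each genotype (n = 3). The points of the 2 genotypes overlap for all 9 genes, and *Malat1* lies between 2739 and 3986 CPM while *Pantr1* lies between 5.16 and 6.75 CPM.

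None of the 9 RNAs passed the threshold between genotypes by edgeR's quasi-likelihood test (adjusted p below 0.05 over all 16330 genes). Over all genes 16 passed, which is 0.098%. At an unadjusted p below 0.05, 1 of the 9, *Malat1*, was lower in *Slc39a8*-NSKO, where 3.14% of all genes were lower and 5.39% differed in either direction. DESeq2 and limma-voom called 0 of the 9 as well. Values of the genotypes overlapped in all 9 genes, whereas 10.3% of all genes did not overlap. The fitted log2 fold change was below 0 for 8 of the 9 genes, against 49.5% of all genes, with a median of -0.12 over the 9 against 0.0011 over all genes. The median over the 1258 genes annotated as long noncoding RNAs, 8 of the 9 among them, was -0.05, and 0 of these passed. Control mouse 2, the smallest library, was the highest of 6 in 7 of the 9 genes, and *Slc39a8*-NSKO mouse 1 was the lowest in 6 of the 9. Without control mouse 2 the median over the 9 genes was -0.02, with 6 of 9 below 0. Without *Slc39a8*-NSKO mouse 1 it was -0.06.

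**Figure D2:**
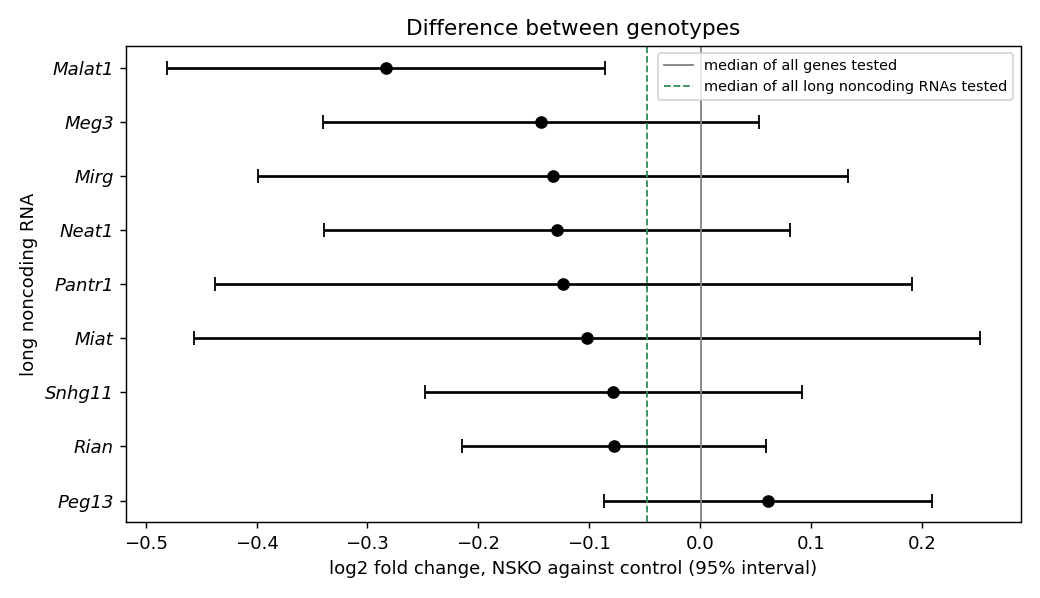
Log2 fold change of *Slc39a8*-NSKO against control for the 9 long noncoding RNAs, as points with 95% intervals from edgeR's fit, beside the medians of all 16330 genes (solid line) and of all 1258 long noncoding RNAs (dashed line). Only the interval of *Malat1*, from -0.48 to -0.09, lies wholly below 0, and none of the adjusted p values is below 0.05.

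*Malat1* (ENSMUSG00000092341.2, a single gene on the minus strand at chr19:5795690-5802672) had the largest difference of the 9. Its level was 3230, 3986, and 3961 CPM in control mice 1 to 3 and 2739, 2941, and 3505 CPM in *Slc39a8*-NSKO mice 1 to 3. *Slc39a8*-NSKO mouse 3 was above control mouse 1, so the genotypes overlapped, and the other 2 *Slc39a8*-NSKO mice were the lowest of all. The means were 3726 ± 430 (SD, n = 3) and 3062 ± 397 CPM (n = 3), 82.2% of control. The log2 fold change was -0.28 (SE 0.092, 95% interval -0.48 to -0.09, edgeR adjusted p = 0.728), and the exact permutation test gave p = 0.2, where 0.1 is the smallest p that 3 mice against 3 allow. It was 188th of all genes by unadjusted p (0.00838, edgeR). With no filter on low counts, edgeR called *Malat1* at an adjusted p of 4.07e-05 with a log2 fold change of -0.28. In that fit the estimated prior degrees of freedom were infinite, against 9.45 with the filter, so that the gene's own spread between mice no longer entered its test. The counting error of *Malat1* was 0.406% of its level, against an SD between mice of 11.5% in control and 13.0% in *Slc39a8*-NSKO. Its antisense neighbor Gm37376 had 122 counts in control mouse 2 and 0 in the others, against 57328 for *Malat1* in that mouse.

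*Neat1* (ENSMUSG00000092274.2, chr19:5824708-5845478, minus strand) is the neighbor of *Malat1* on the chromosome. Its level was 111, 135, and 107 CPM in control and 93.3, 121, and 108 CPM in *Slc39a8*-NSKO mice 1 to 3. Control mouse 2 was the highest and *Slc39a8*-NSKO mouse 1 the lowest, and the other 4 mice were mixed. The log2 fold change was -0.13 (SE 0.097, edgeR adjusted p = 0.994), -0.02 when control mouse 2 was dropped and -0.22 when *Slc39a8*-NSKO mouse 2 was. The gene makes a long isoform of 20771 bases, which builds paraspeckles and whose last 40 bases hold no AATAAA polyadenylation signal, and a short one of 3004 bases that holds it, and counts per gene cannot separate these.

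Genes near *Malat1* and *Neat1* and the proteins of the bodies they belong to were read alongside. Of 7 neighbors on chromosome 19 that were read, 0 passed and 5 had a log2 fold change below 0, with a median of -0.05. *Frmd8*, which lies next to *Neat1*, had 32.5 ± 2.62 CPM in control and 27.2 ± 1.98 CPM in *Slc39a8*-NSKO (n = 3 each), a log2 fold change of -0.26 (edgeR adjusted p = 0.729). *Slc25a45*, a mitochondrial carrier gene, had 3.80 ± 0.390 and 2.70 ± 0.397 CPM, a log2 fold change of -0.50 (edgeR adjusted p = 0.867). In these 2 of the 7 genes the genotypes did not overlap, where 10.3% of all genes did not. The other 5, *Ltbp3*, *Fam89b*, *Ehbp1l1*, *Map3k11*, and *Pcnx3*, lay between -0.12 and 0.07. Of 12 paraspeckle protein genes 0 passed (median -0.03), and the most abundant, the RNA-binding protein gene *Hnrnpk*, had 387 ± 6.42 and 386 ± 7.77 CPM. Of 13 nuclear speckle protein genes 0 passed (median -0.05). The log2 fold change was below 0 in 12 of these 13 and in 10 of the 12 paraspeckle genes, where 49.5% of all genes were below 0. The speckle scaffold genes *Srrm2* and *Son* had log2 fold changes of -0.07 and -0.04. The sum over the speckle genes was 2876 to 3204 CPM in control and 2865 to 3026 CPM in *Slc39a8*-NSKO, with control mouse 2 the highest.

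*Meg3* (ENSMUSG00000021268.17, chr12:109541001-109571726, plus strand) is a growth-restraining imprinted RNA of the *Dlk1*-*Dio3* domain. Its level was 2212, 2689, and 2436 CPM in control and 1954, 2115, and 2573 CPM in *Slc39a8*-NSKO mice 1 to 3. The highest mouse was control 2 and the next *Slc39a8*-NSKO 3, so the genotypes overlapped through that mouse, while the other 2 *Slc39a8*-NSKO mice were below all controls. The means were 2446 ± 238 and 2214 ± 321 CPM (SD, n = 3 each). This was a log2 fold change of -0.14 (SE 0.091, 95% interval -0.34 to 0.05, edgeR adjusted p = 0.993), and it lay between -0.26 (without *Slc39a8*-NSKO mouse 3) and -0.06 (without *Slc39a8*-NSKO mouse 1) when a mouse was left out. For this gene, whose promoter carries the full CRE, no difference was detectable, and the lower bound of the interval was a level of 0.79 times control. Counts of *Meg3* were not whole in any of the 6 mice, as happens when reads that fit several transcripts are divided between genes.

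*Rian* (ENSMUSG00000097451.10, chr12:109603940-109661716, plus strand), the host of box C/D small nucleolar RNAs, had 466, 559, and 488 CPM in control and 479, 485, and 468 CPM in *Slc39a8*-NSKO mice 1 to 3. The 3 *Slc39a8*-NSKO mice were close together, with an SD of 8.45 CPM against 48.3 CPM in control, and lay within the control range. The genotypes differed by a log2 fold change of -0.08 (SE 0.064, 95% interval -0.21 to 0.06, edgeR adjusted p = 0.994). Without control mouse 2 it was 0.0020, so its direction rested on that mouse.

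*Mirg* (ENSMUSG00000097391.8, chr12:109729764-109749460, plus strand), the host of a large microRNA cluster, had 26.4, 40.7, and 37.2 CPM in control and 29.5, 32.1, and 32.8 CPM in *Slc39a8*-NSKO mice 1 to 3. All 3 *Slc39a8*-NSKO mice lay between control mouse 1 and the other 2 controls. Between genotypes the log2 fold change was -0.13 (SE 0.123, 95% interval -0.40 to 0.13, edgeR adjusted p = 0.994), -0.0048 without control mouse 2 and -0.31 without control mouse 1. The 3 imprinted RNAs of the domain were all highest in control mouse 2, and *Rian* and *Mirg* were both lowest in control mouse 1. They differed in other mice. *Slc39a8*-NSKO mouse 3 was the second highest of 6 for *Meg3* and the second lowest for *Rian* (468 CPM, close to the 466 CPM of control mouse 1).

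Protein-coding genes of the domain and its surroundings gave 0 of 9 tested genes past the threshold, with a median log2 fold change of 0.03. *Dlk1*, an imprinted gene for a membrane protein of the Notch ligand family, had 1.59, 5.15, and 0.321 CPM in control and 0.451, 6.57, and 1.01 CPM in *Slc39a8*-NSKO mice 1 to 3, so mouse 2 of each genotype stood far above the others. *Rtl1*, a retrotransposon-derived imprinted gene, had 8.66 ± 0.219 CPM in control and 6.70 ± 3.09 CPM in *Slc39a8*-NSKO (n = 3 each), a log2 fold change of -0.38 (edgeR adjusted p = 0.993). *Dio3*, which encodes a deiodinase, was below the filter. *Slc25a29*, a mitochondrial carrier gene nearby, did not overlap between genotypes, at 39.1 ± 1.47 CPM in *Slc39a8*-NSKO and 34.3 ± 1.32 CPM in control, with an edgeR adjusted p of 0.838. The other tested genes were *Begain* (log2 fold change 0.03), *Wdr25* (-0.19), *Wars* (0.04), *Yy1* (-0.04), *Ppp2r5c* (0.05), and *Dync1h1* (-0.07). *Dync1h1* did not overlap between genotypes either, which made 2 of the 9 tested genes, where 10.3% of all genes did not overlap.

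*Snhg11* (ENSMUSG00000044349.15, chr2:158375638-158386145, plus strand) is labelled protein coding in the annotation, although it is known as a small nucleolar RNA host gene. Its level was 1073, 1322, and 1167 CPM in control and 1011, 1147, and 1215 CPM in *Slc39a8*-NSKO mice 1 to 3. Control mouse 2 was the highest, *Slc39a8*-NSKO mouse 1 the lowest, and the means of 1187 ± 126 and 1125 ± 104 CPM (SD, n = 3 each) differed by less than the SD. This gave a log2 fold change of -0.08 (SE 0.079, edgeR adjusted p = 0.994), and 0.0062 without control mouse 2. Of 14 other small nucleolar RNA host genes 0 passed, with a median of -0.02. *Snhg14*, the long imprinted host of the *Snord116* and *Snord115* clusters, had 121 ± 10.5 and 104 ± 4.84 CPM, a log2 fold change of -0.22 (edgeR adjusted p = 0.644). *Snhg20* and *Gas5* had log2 fold changes of -0.08 and -0.07.

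*Miat* (ENSMUSG00000097767.8, chr5:112213228-112229395, minus strand) was the most variable of the 9 between mice. Its level was 21.7, 18.0, and 15.7 CPM in control and 14.3, 14.8, and 22.9 CPM in *Slc39a8*-NSKO mice 1 to 3. The highest and the lowest mouse were both *Slc39a8*-NSKO, at 1.60 times each other. The SD was 27.8% of the mean in *Slc39a8*-NSKO and 16.2% in control, against a counting error of 5.54%. The log2 fold change was -0.10 (SE 0.165, 95% interval -0.46 to 0.25, edgeR adjusted p = 0.994). Its direction reversed without control mouse 1 (0.039), and also without *Slc39a8*-NSKO mouse 1 (0.02) and without mouse 2 of that genotype (2.1e-04). Of 4 genes for splicing proteins that bind its repeats or act with it 0 passed. The most abundant were *Qk* (302 ± 21.04 and 299 ± 13.0 CPM), *Srsf1* (282 ± 11.3 and 271 ± 6.28 CPM), and *Sf1* (177 ± 10.5 and 172 ± 7.54 CPM).

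*Peg13* (ENSMUSG00000106847.1, chr15:72805600-72810324, minus strand) was the only one of the 9 with a log2 fold change above 0. Its level was 335, 290, and 306 CPM in control and 355, 302, and 316 CPM in *Slc39a8*-NSKO mice 1 to 3. *Slc39a8*-NSKO mouse 1 was the highest and control mouse 2 the lowest, the opposite ends from *Malat1*, *Meg3*, *Neat1*, *Snhg11*, and *Pantr1*. The log2 fold change was 0.06 (SE 0.069, 95% interval -0.09 to 0.21, edgeR adjusted p = 0.994), and -0.0068 without *Slc39a8*-NSKO mouse 1. *Peg13* has a single exon of 4725 bases inside an intron of *Trappc9*, a gene for a vesicle trafficking subunit, so reads from unspliced *Trappc9* could fall on it. *Trappc9* had 72.5 ± 2.15 and 77.0 ± 2.32 CPM, without overlap (log2 fold change 0.09, edgeR adjusted p = 0.993), and its part in the *Peg13* counts was not tested. *Kcnk9*, the imprinted potassium channel gene of the domain, had 136 ± 1.56 and 125 ± 12.5 CPM (log2 fold change -0.13, edgeR adjusted p = 0.968). *Chrac1*, *Ago2*, and *Ptk2* lay at 0.03, 0.12, and -0.0083. Of these 5 genes of the domain, 1 did not overlap between genotypes, where 10.3% of all genes did not.

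*Pantr1* (ENSMUSG00000060424.14, chr1:42590782-42694842, minus strand) was the lowest of the 9, with 89 to 125 counts per mouse. Its level was 6.03, 6.75, and 5.72 CPM in control and 5.16, 6.11, and 5.68 CPM in *Slc39a8*-NSKO mice 1 to 3, and the genotypes overlapped. It had a log2 fold change of -0.12 (SE 0.146, 95% interval -0.44 to 0.19, edgeR adjusted p = 0.994), and -0.06 without either control mouse 2 or *Slc39a8*-NSKO mouse 1. Its SD between mice, 8.53% in control and 8.45% in *Slc39a8*-NSKO, was below the counting error of 9.68%, so no difference between mice was detectable at this depth. Its neighbor *Pou3f3* had 59.7 ± 2.65 and 63.3 ± 4.58 CPM (log2 fold change 0.08). The other POU factor genes, *Pou3f1*, *Pou3f2*, and *Pou3f4*, had log2 fold changes of 0.04, 0.05, and -0.07, and 0 of the 4 passed.

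Together the 9 RNAs held 0.744%, 0.902%, and 0.853% of all gene counts in control mice 1 to 3 and 0.666%, 0.718%, and 0.827% in *Slc39a8*-NSKO mice 1 to 3. *Malat1* and *Meg3* alone made up 70.3% to 75.1% of that sum in every mouse. Control mouse 1 and *Slc39a8*-NSKO mouse 3 crossed, so the shares overlapped between genotypes. With the 9 genes taken out of the library sizes, the count of genes past the threshold was 16 as before.

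**Figure D3:**
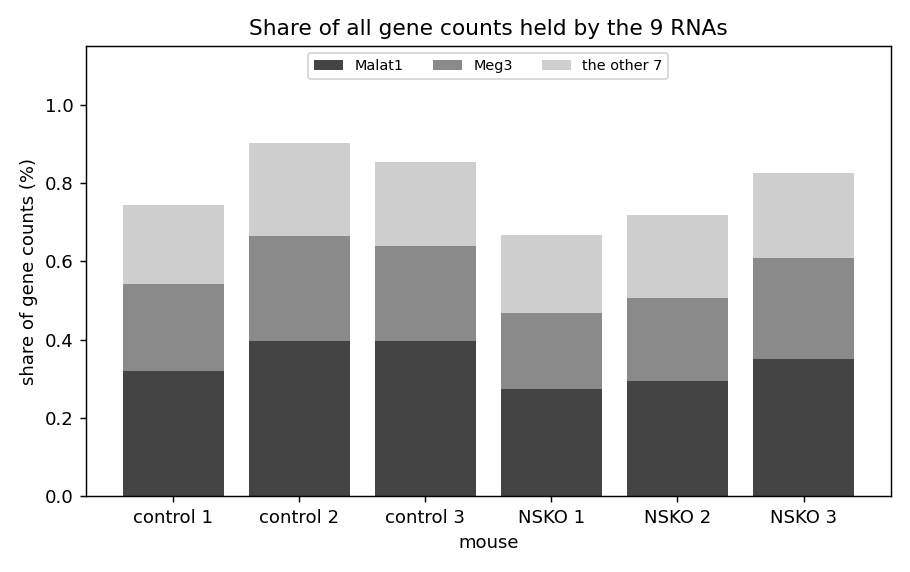
Share of all gene counts (%) that fell on the 9 long noncoding RNAs in each mouse, stacked into *Malat1*, *Meg3*, and the other 7. The totals run from 0.666% in *Slc39a8*-NSKO mouse 1 to 0.902% in control mouse 2.

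The levels were also compared with library size. Control mouse 1 had the largest library (20844267) and control mice 2 and 3 the smallest. The range of the controls thus enclosed that of the *Slc39a8*-NSKO mice. Pearson correlations of log2 CPM with library size over the 6 mice were computed for the 9 genes, with p from all 720 orders of the mice (exact permutation, two-sided) and Benjamini-Hochberg adjustment over the 9. *Mirg* had r = -0.965 (exact permutation p = 0.00139, the smallest these orders can give, adjusted p = 0.0125) and Spearman's rho = -1 (exact permutation p = 0.00278, adjusted p = 0.025). Its counts were nearly level, from 547 to 625, while library sizes varied, so its CPM fell in step from the smallest library to the largest. Without control mice 2 and 3, the farthest from the median library size, its r was -0.972. Of all 16330 genes, 31 had an r at or below that of *Mirg*. The adjustment covered only the 9 genes, which were chosen with earlier results of these data known. No p adjusted over all genes was computed for these correlations.

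In the other 8 genes the relation did not pass the adjustment. *Malat1* had r = -0.851 (exact permutation p = 0.0458, adjusted p = 0.138) and rho = -0.829 (exact permutation p = 0.0583), and r = -0.326 without control mice 2 and 3, so the relation rested on those mice. *Rian* had r = -0.806 (exact permutation p = 0.0194, adjusted p = 0.0875) and rho = -0.829 (exact permutation p = 0.0583), and r = -0.227 without the same mice. *Snhg11* had r = -0.785 (exact permutation p = 0.0653, adjusted p = 0.147) and rho = -0.886 (exact permutation p = 0.0333, adjusted p = 0.131), and r = -0.765 without them.

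*Meg3* gave r = -0.745 (exact permutation p = 0.104) and rho = -0.771 (exact permutation p = 0.103). *Peg13* ran the other way, with r = 0.752 (exact permutation p = 0.0958, adjusted p = 0.156) and rho = 0.771 (exact permutation p = 0.103), and r = 0.587 without control mice 2 and 3. *Neat1* (r = -0.538, exact permutation p = 0.283, rho = -0.314, p = 0.564), *Pantr1* (r = -0.508, exact permutation p = 0.324, rho = -0.371, p = 0.497), and *Miat* (r = 0.123, exact permutation p = 0.790, rho = -0.143, p = 0.803) showed no clear relation. A negative r at an unadjusted p of at most 0.05 was found in 3 of the 9 genes and in 5.09% of all genes. The median r was -0.745 over the 9 and 0.0029 over all genes. No correlation was computed within a genotype, which has 3 mice, and the controls had both the 2 smallest libraries and the largest. The part of library size in the fold changes above was not tested.

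**Figure D4:**
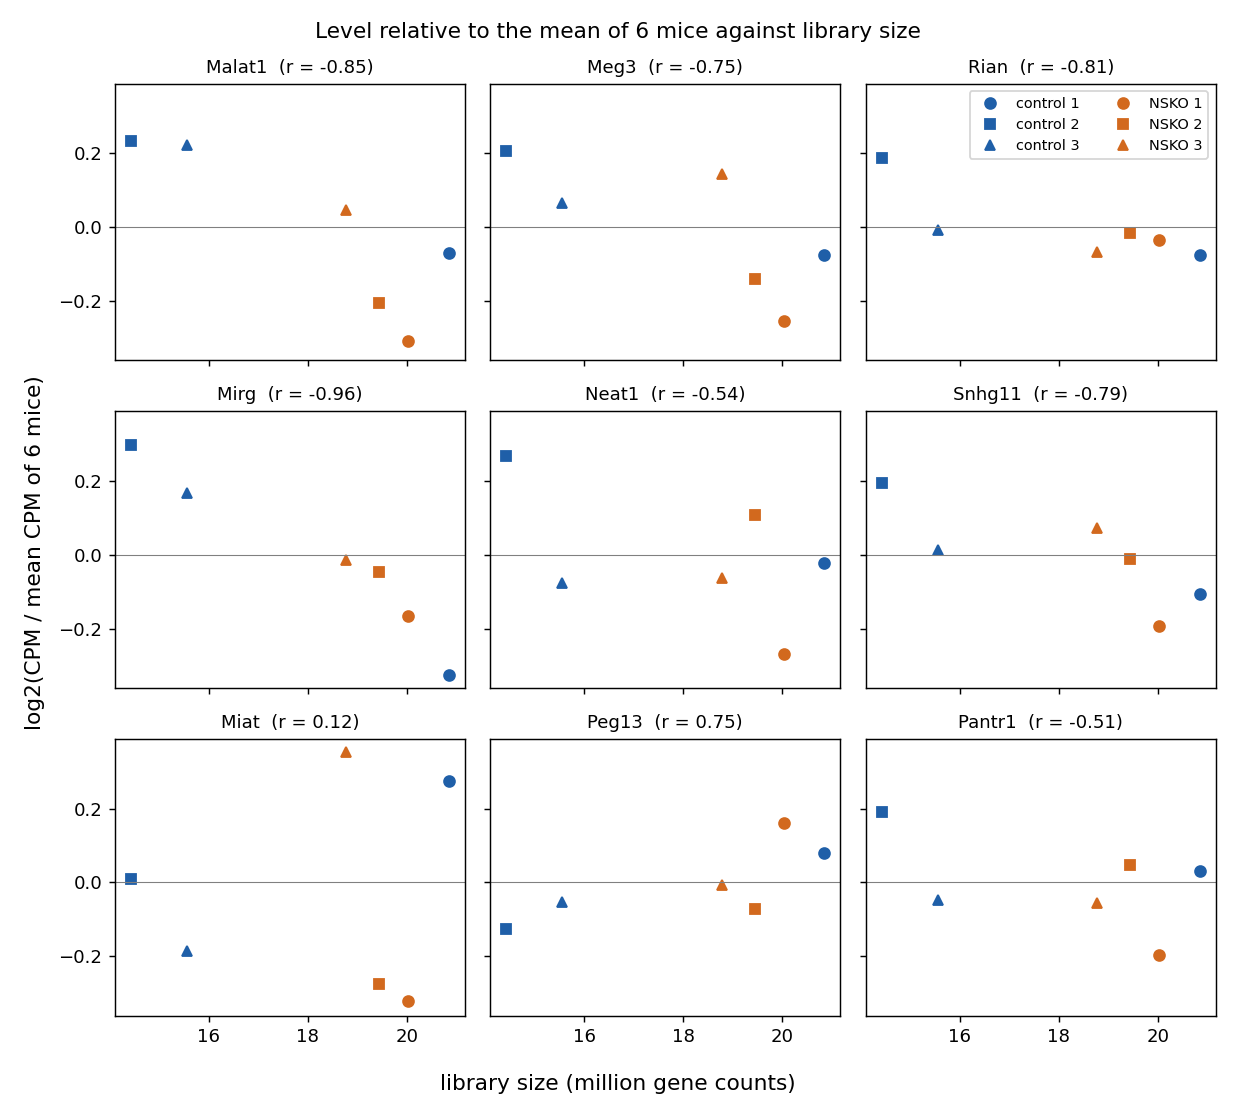
Level of each RNA, as log2 of its CPM over the mean of 6 mice, against library size (axis in units of 1000000 gene counts), with 1 panel per gene and 1 point per mouse (control in blue, *Slc39a8*-NSKO in orange). *Mirg* falls steadily from the smallest to the largest library (r = -0.965), *Peg13* runs upward (r = 0.752), and *Miat* shows no slope (r = 0.123).

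Genes whose log2 CPM followed each RNA most closely over the 6 mice were sought among the genes with at least 10 CPM. All points share the same 6 libraries, and with 6 points high values of r arise when so many genes are searched. For *Malat1* these were the noncoding RNA gene Gm10419 (r = 0.992) and *Numbl* (0.989), for *Meg3* *Edem2* (0.987) and *Cers6* (0.980), and for *Rian* *Fbxo2* (0.988) and *Hnrnpd* (0.986). For *Mirg* they were *Rbm25* (0.993) and *Zc3h11a* (0.992), for *Neat1* *Abcb8* (0.992) and *Ccndbp1* (0.991), and for *Snhg11* *Tmem145* (0.997) and *Cnnm3* (0.993). *Miat* was followed by *Tmem132b* (0.981) and *Zfp629* (0.977), *Peg13* by *Atp2b3* (0.996) and *Copg2* (0.995), and *Pantr1* by *Ccdc149* (0.987) and *Lamtor2* (0.987). The number of genes with r of at least 0.95 was 106 for *Peg13*, 92 for *Snhg11*, 73 for *Mirg*, and 5 for *Miat*, and lay between 33 and 45 for the others.

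Cell type markers were compared between genotypes in the same libraries. By edgeR 0 markers of any list passed. The summed level of 8 astrocyte and Bergmann glia markers was 2430 to 2791 CPM in control and 2831 to 2856 CPM in *Slc39a8*-NSKO. That of 8 microglia markers was 119 to 133 and 139 to 141 CPM. Both sums were without overlap, where 10.3% of all single genes did not overlap. The sums of granule cell (6058 to 6177 and 6024 to 6590 CPM), Purkinje cell (6925 to 7780 and 7489 to 8114 CPM), and oligodendrocyte markers (8659 to 9886 and 8066 to 9726 CPM) overlapped. So did those of endothelial (189 to 221 and 190 to 211 CPM), choroid plexus (780 to 1124 and 910 to 1567 CPM), and erythroid markers (234 to 535 and 349 to 556 CPM). The log2 fold change was below 0 in 10 of 10 oligodendrocyte and 6 of 6 endothelial markers, where 49.5% of all genes were below 0. It was below 0 in 1 of 8 astrocyte and Bergmann glia, 1 of 8 microglia, and 1 of 7 choroid plexus markers. Of the granule cell markers 2 of 10 were below 0, of the Purkinje cell markers 3 of 8, and of the erythroid markers 1 of 5. The choroid plexus markers had the largest median of these lists, 0.35. Control mouse 2, the highest mouse for 7 of the 9 RNAs, had the lowest sum of astrocyte and Bergmann glia, microglia, and Purkinje cell markers. The same mouse had the highest sum of endothelial markers (221 CPM). It was at neither end for granule cell, oligodendrocyte, choroid plexus, and erythroid markers. The part of these markers in the levels of the 9 RNAs was not tested.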

How the data were processed

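RNA-Seq was performed on cerebellum of 3 control and 3 *Slc39a8*-NSKO mice. The methods describe oligo-dT cDNA, NEBNext Ultra II libraries (named Directional in the labels), NovaSeq paired-end reads, and alignment with STAR to an Ensembl reference, and the submitters' processing notes also name RSEM, DESeq2, FastQC, and mm10. The strand setting of the counting is not given in the sources used here. The values deposited by the authors are expected counts per gene and mouse, without normalization. The table has 53807 entries, of which 92 spike-in entries, with at most 5 counts per mouse, were left out. Names and positions came from GENCODE M21 (GRCm38), which held 53620 of the 53715 genes, and from RefSeq.

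Expected counts were rounded and analysed in R 4.3.3 with edgeR 4.0.16 (TMM, filterByExpr, glmQLFit and glmQLFTest, no covariate, Benjamini-Hochberg adjustment over the 16330 genes tested, threshold 0.05). CPM used TMM library sizes, and log2 CPM had a prior count of 2. CPM per kb divided by the summed length of all annotated exons. On data simulated from these libraries with 200 of 16110 genes changed by a log2 fold change of 1, the fit recovered 76% of them. The simulated counts took the trended dispersion, not the own spread of each gene. Smaller changes, such as the -0.28 of *Malat1*, were not simulated, so the 76% does not apply to them. Alternatives were DESeq2 1.42.0, limma-voom (limma 3.58.1), other normalizations, other filters, unrounded counts, a replicate block, and each mouse left out. Removing the 9 genes from the library sizes, the longest transcript as length, and the medians over long noncoding RNAs were added after seeing the data. Libraries differed by more than sampling noise (chi-square per degree of freedom at least 3.89). Depth was 14431260 to 20844267 gene counts, and floors cover counting error only.

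The genes named were the 9 RNAs, the tested genes of the 4 neighborhood and family lists, members of other lists by mean CPM, the 2 genes most like each RNA, and *Slc39a8*. The 9 genes and all lists were chosen with earlier results of these data known. A figure legend of the study speaks of technical triplicates while its methods state 3 mice, and if the former held, p values would measure technical spread only. A result for 1 gene of the lists is not reported here, and its list was read without it.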

Additional observations from a re-analysis of the deposited data

How the results depend on the processing

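In the main analysis 16 genes and 0 of the 9 RNAs passed. The count of genes was 178 with no filter on low counts, where 1 of the 9 RNAs (*Malat1*) passed, 37 with DESeq2, and 41 with the replicate block. It ranged from 9 (without *Slc39a8*-NSKO mouse 2) to 38 (without control mouse 1) when each mouse was left out, and 0 of the 9 RNAs passed in each of these. With at least 10 counts in every mouse, 11 genes passed, 11 lower and 0 higher, against 12 lower and 4 higher. The rise with no filter went with infinite prior degrees of freedom; the cause of the other shifts was not tested. The 9 log2 fold changes kept their sign in 10 of 10 settings other than leaving out a mouse. Leaving out a mouse reversed 4: *Rian*, which ranged from -0.13 to 0.0020, and *Snhg11*, from -0.14 to 0.0062 (both reversed without control mouse 2), *Miat*, from -0.35 to 0.039 (reversed without control mouse 1, *Slc39a8*-NSKO mouse 1, or mouse 2 of that genotype), and *Peg13*, from -0.0068 to 0.12 (reversed without *Slc39a8*-NSKO mouse 1). For *Malat1* the log2 fold change lay between -0.39 and -0.21, and the lowest edgeR adjusted p was 0.112 (without control mouse 1). Same-numbered mice of the genotypes correlated at 0.142, 0.116, and 0.0104 in their deviations, and differently numbered mice at -0.177 to 0.0665. These values do not decide whether the numbers mark pairs, and the main fit did not use them as pairs. The block called 0 of the 9 RNAs, with *Malat1* at an edgeR adjusted p of 0.0601 against 0.728 without the block. In the other lists the block added *mt-Co2* among the mitochondrial mRNAs (log2 fold change -0.27, edgeR adjusted p = 0.0349 against 0.667 without it). It also added *Gfap* among the astrocyte and Bergmann glia markers (0.42, edgeR adjusted p = 0.0349 against 0.301). Both were named after their values were seen. Groups of 3 keep permutation p values at or above 0.1, and counts of 89 to 125 limit *Pantr1*.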

Other observations

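Among 18 other long noncoding RNAs of brain that were tested, 0 passed by edgeR (4 at an unadjusted p below 0.05, 2 lower and 2 higher in *Slc39a8*-NSKO, where 5.39% of all genes were at that level). Of the 18, 14 had a log2 fold change below 0, where 49.5% of all genes did. The 3 most abundant were *Oip5os1* (876 ± 14.3 CPM in control and 859 ± 41.4 CPM in *Slc39a8*-NSKO, n = 3 each), *Norad* (817 ± 29.5 and 826 ± 10.5 CPM), and *Mir124a-1hg*, a host of the neuronal microRNA miR-124 (467 ± 10.6 and 436 ± 24.3 CPM). The summed level of all 18 was 2498 to 2538 CPM in control and 2444 to 2484 CPM in *Slc39a8*-NSKO, without overlap, where 10.3% of all single genes did not overlap. Most of this sum came from the 3 most abundant genes, and in each of these 3 the genotypes overlapped. The 2 on the lower side, chosen after their values were seen, were *Kcnq1ot1*, an imprinted antisense RNA, with 51.0 ± 0.766 and 42.7 ± 2.15 CPM (log2 fold change -0.26, edgeR adjusted p = 0.346), and *Sox2ot*, which overlaps *Sox2*, with 29.3 ± 2.08 and 24.5 ± 0.648 CPM (log2 fold change -0.26, edgeR adjusted p = 0.612). In both genes all 3 *Slc39a8*-NSKO mice were below all 3 controls. Of the 18 genes, 3 did not overlap between genotypes, where 10.3% of all genes did not. The 2 on the higher side, chosen in the same way, were *Pvt1*, with 1.59 ± 0.380 and 2.48 ± 0.665 CPM (log2 fold change 0.62, edgeR adjusted p = 0.911), whose genotypes overlapped, and *Tunar*, with 51.1 ± 1.82 and 56.0 ± 0.808 CPM (log2 fold change 0.13, edgeR adjusted p = 0.911), whose genotypes did not.

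Of 21 imprinted genes outside the 9 RNAs 0 passed by edgeR, with a median log2 fold change of -0.02. At an unadjusted p below 0.05 by edgeR there were 4, 2 lower and 2 higher, where 5.39% of all genes were at that level. The 3 most abundant are given here. *Gnas*, for a G protein subunit, had 1014 ± 32.1 and 1008 ± 22.1 CPM, *Snrpn* 743 ± 17.0 and 735 ± 18.5 CPM, and *Peg3* 513 ± 52.9 and 442 ± 25.5 CPM (log2 fold change -0.21, edgeR adjusted p = 0.762). Of 13 mitochondrial mRNAs 0 passed, with a median of -0.07.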
